A study of Arabidopsis thaliana with 7 samples.

Results

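The 6 genes described here, PHO2 (AT2G33770), NLA (AT1G02860), PHF1 (AT3G52190), PHR1 (AT4G28610), PHL1 (AT5G29000) and VPT1 (AT1G63010), make regulators and carriers of phosphate in the thale cress Arabidopsis thaliana. They were chosen by locus from the tables of coding counts, double-stranded RNA (dsRNA) counts, upstream reading frames and untranslated regions. All 6 were found among the 27416 loci of the coding table, all 6 in the dsRNA and untranslated region tables, and 2 in the table of upstream reading frames. The roots came from 14 d old seedlings that had spent 7 d on 500 µM NaH2PO4 (control) or 0 µM NaH2PO4 (low phosphate), with 2 bioreplicates per condition and assay. Footprints, the RNA fragments shielded by ribosomes, and poly(A) RNA came from plants that express an epitope-tagged ribosomal protein from the 35S promoter in the Col-0 background, named 35S:HF-FLAG-RPL8 in the sample labels and RPL18B in the protocols. The dsRNA libraries, made from total RNA after rRNA depletion and digestion of single-stranded RNA, carry the line label Col-0. The only small RNA sample is of control roots of the tagged line, but the authors' small RNA table names no sample.

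Plants sense phosphate shortage through the transcription factors PHR1 and PHL1, which activate starvation genes when SPX proteins no longer hold them. Uptake is limited by PHO2, a ubiquitin-conjugating enzyme that leads to breakdown of the exporter PHO1 and of PHT1 uptake carriers, and by NLA, a ubiquitin ligase of PHT1 carriers. The microRNA miR399 targets the 5′ leader of PHO2, and miR827 targets the 5′ leader of NLA. PHF1 lets PHT1 carriers leave the endoplasmic reticulum, and VPT1 loads phosphate into the vacuole.

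The microRNAs of this circuit were found as loci of the authors' small RNA table, named here by the annotated microRNA gene that lies between the same neighbouring genes. Their most abundant RNAs are shown because they are the regulators of PHO2 and NLA, with bases 2 to 8, the seed, in capitals, and the last line is the most abundant small RNA of a locus inside NLA.
miR399a: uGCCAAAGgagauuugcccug
miR399b and miR399c: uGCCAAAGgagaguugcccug
miR399 locus on chromosome 2: uGCCAAAGgagauuugccccg
miR827: uUAGAUGAccaucaacaaacu
NLA locus: uUAGAUGAccaucaacaaacc

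The miR399 RNAs shared 1 seed, and the NLA small RNA shared the seed of miR827. Counted from the 5′ end, the NLA RNA differed from miR827 over 21 positions only by U21C, with the miR827 base first. In the authors' deposited table, the miR827 RNA had 64878 reads of the 81987 at its locus (TAIR10 chr3:22122804-22122916). The NLA RNA had 151 reads, 0.233% of the miR827 number, and was the most abundant RNA of no other listed locus. The NLA locus (chr1:635166-636396) held 586 reads, 452 of them 21 nt long, and overlapped the NLA leader at chr1:635144-635473. Only 32.8% of the reads at this locus lay on the plus strand, the strand of NLA. The miR399b locus (chr1:23345379-23345503) had 9735 reads and lay 2057 nt from the 3′ end of VPT1, its annotated neighbour. The miR399c locus (chr5:24962389-24962697) had 10137 reads, although the table does not call it a microRNA. The most abundant RNA, with 9251 reads listed at miR399b and 9305 at miR399c, is the same, so sequence cannot tell its source. The miR399a locus (chr1:10227051-10227215) had 2383 reads, and the chromosome 2 locus (chr2:14442986-14443075) had 1074. MIR399d, MIR399e and MIR399f all lie between the neighbours of that locus, so its RNA is not assigned to 1 of them. Inside PHO2, 4 loci with no assigned size class summed to 2192 reads, and a locus of 24-nt RNAs with 279 reads lay at the 3′ end of PHL1. The table holds 1 set of totals, and the sources used here do not give the libraries behind them, so no comparison between conditions was made.

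Coding counts summed to 7156329 to 12817826 per footprint library and 18262547 to 26746252 per poly(A) library, and dsRNA counts to 2735264 to 8249514. All 8 root markers reached 1 CPM, the count scaled to library size, in each library, with a summed 497 to 895 CPM in the coding libraries. Of 6 leaf markers, 4 or 5 reached 1 CPM in the coding libraries, where they summed to 93.1 to 303 CPM, and FAMA, a stomatal gene, was at 0 in 1 footprint and 1 poly(A) library. The sources used here do not say how the bioreplicates were raised, so p-values rest on the spread between these samples, estimated with help from other genes. In the dsRNA fit the spread was in effect pooled over genes, so its p-values do not measure a gene's own spread between 2 libraries. Levels below are CPM scaled by library composition, are not corrected for gene length and are compared within a gene, and changes are log2 values of low phosphate against control with their SE (n = 2 per condition). In bulk roots, fewer cells that express a gene and less RNA per cell cannot be told apart.

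In low phosphate roots, PHO2 poly(A) RNA fell and PHF1 poly(A) RNA rose, while footprints rose for PHF1 and VPT1. In dsRNA, PHF1 and VPT1 rose and PHO2 fell. NLA had lower values in each low phosphate library of poly(A) RNA and footprints but was not called, and PHR1 and PHL1 were not called in any assay. Genes were called by the quasi-likelihood test of edgeR where the adjusted p (Benjamini-Hochberg) was under 0.05. In poly(A) RNA this called 2 of 6 members, 1 in each direction, and 1.18% of all genes tested (0.931% higher and 0.252% lower). In footprints it called 2 of 6, both higher, and 1.19% of all genes (0.911% higher and 0.282% lower). In dsRNA it called 3 of 6, against 15.7% of all genes. The median change over the 6 genes was -0.16 in poly(A) RNA, 0.00 in footprints and -0.13 in dsRNA, beside medians of 0.00, 0.00 and -0.02 over all genes tested.

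**Figure D1:**
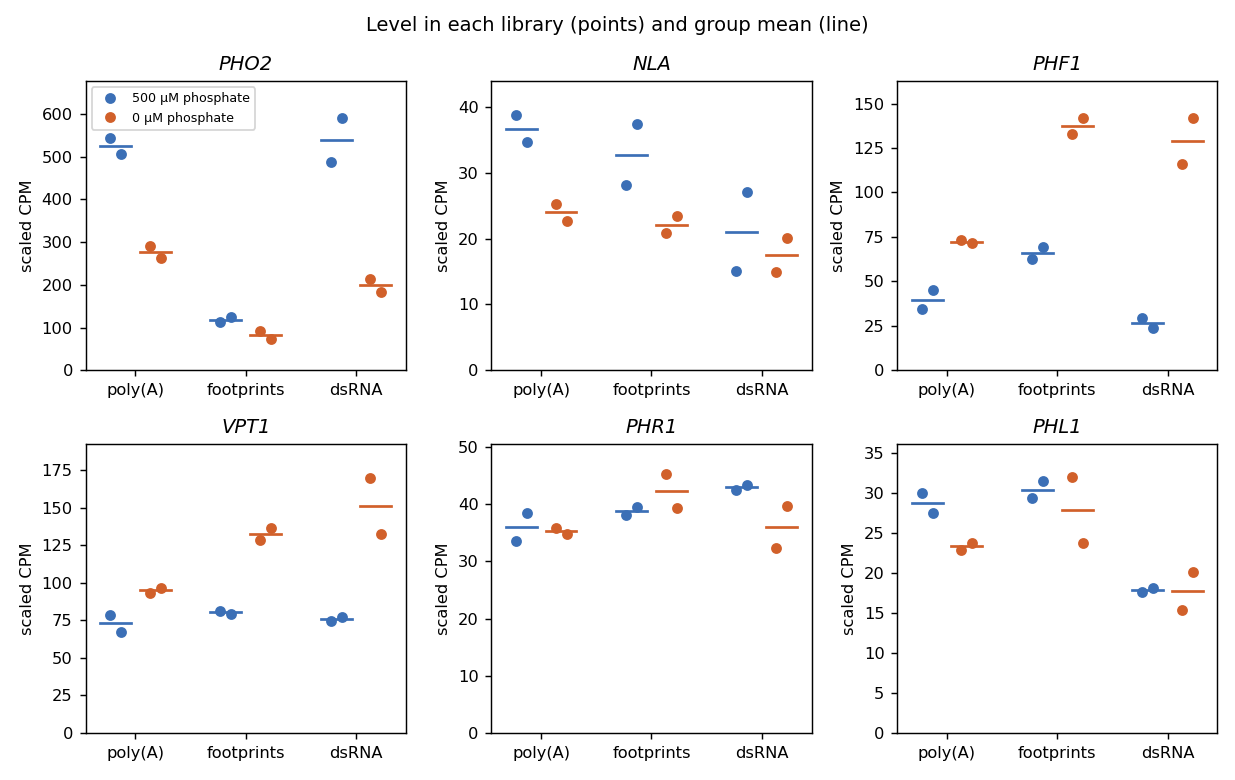
Scaled CPM of each gene (y axis, from 0) in poly(A) RNA, footprint and dsRNA libraries (x axis) at 500 µM and 0 µM phosphate; points are libraries and lines are group means of 2. PHO2 poly(A) RNA lies at 543.9 and 506.7 in control and at 291.1 and 263.2 in low phosphate, whereas the PHF1 points of low phosphate lie above the control points in all 3 assays.

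PHO2 lies on the minus strand of chromosome 2 (TAIR10, 14277558 to 14283040). Its poly(A) RNA stood at 543.9 and 506.7 CPM in control and at 291.1 and 263.2 CPM in low phosphate. The groups did not overlap, as for 20.2% of all genes in the same direction. The level was 1.90-fold lower in low phosphate (log2 change -0.92 ± 0.15, edgeR adjusted p = 0.0182). This call ended when any 1 of the 4 poly(A) libraries was left out, with edgeR adjusted p of 0.0748 to 0.173. PHO2 footprints were 112.9 and 123.6 CPM in control and 92.0 and 73.9 CPM in low phosphate. Both low phosphate libraries were below both control libraries, as for 18.4% of all genes, but the change of -0.51 ± 0.15 was not called (edgeR adjusted p = 0.223). PHO2 dsRNA was 488.5 and 589.8 CPM in control and 214.2 and 184.0 CPM in low phosphate. The 2.70-fold decrease was called (log2 change -1.43 ± 0.23, edgeR adjusted p = 2.91e-08), as were 5.57% of all genes in that direction. Without dsRNA control replicate 2 the call ended (edgeR adjusted p = 0.0666). The dsRNA change was not called as different from the poly(A) change, at -0.50 ± 0.25 (edgeR adjusted p = 0.402). Of the 8 root markers, SKOR, a potassium channel gene of the root vascular tissue, fell as well. Its poly(A) RNA was 72.2 and 81.0 CPM in control and 25.3 and 22.2 CPM in low phosphate, before scaling by composition, with a change of -1.68 ± 0.14 (edgeR adjusted p = 0.000605). The SKOR footprint change was -1.30 ± 0.14 (edgeR adjusted p = 0.00237), and its dsRNA change was -3.61 ± 0.34 (edgeR adjusted p = 4.88e-24). The root marker SHR did not follow SKOR and was not called in any assay. Its changes were 0.22 ± 0.14 in poly(A) RNA, -0.43 ± 0.16 in footprints and 0.00 ± 0.27 in dsRNA (edgeR adjusted p = 0.790, 0.338 and 0.998). EdgeR called 1 root marker lower in each assay, and 1, 2 and 3 higher in poly(A) RNA, footprints and dsRNA. The part of vascular cells in the PHO2 decrease was not tested.

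PHO2 carried few footprints for its poly(A) RNA. Its ratio of footprint CPM to poly(A) CPM over the coding sequence was 0.186 and 0.212 in the control pairs and 0.279 and 0.248 in the low phosphate pairs. The median over the 12735 genes with at least 50 counts in each control library was 0.957, and 62 of these genes had a lower control ratio than PHO2. The other members lay nearer the middle. NLA had control ratios of 0.651 and 0.936, PHR1 of 1.01 and 0.892, PHL1 of 0.877 and 0.996, and VPT1 of 0.927 and 1.02. PHF1, at 1.63 and 1.34, was the highest of the 6 and stood above 84.3% of genes. These ratios describe the libraries and were not tested between genes.

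**Figure D2:**
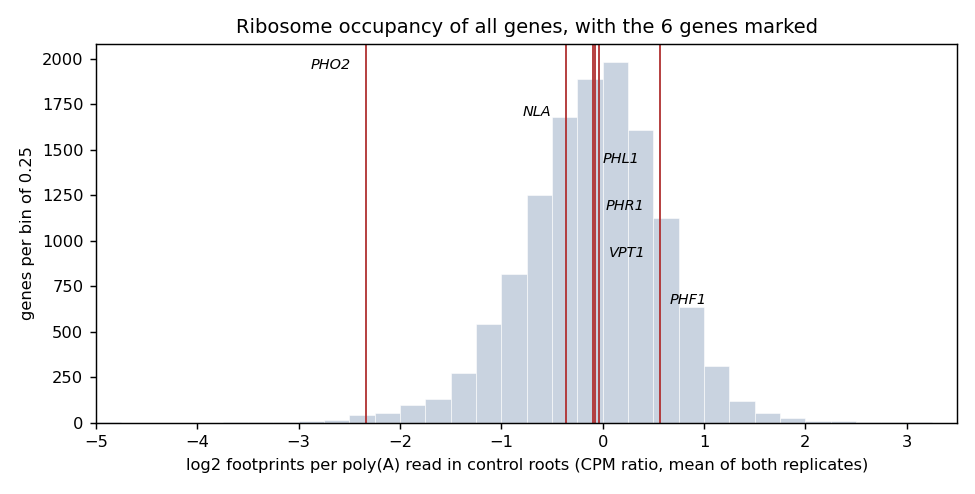
Number of genes (y axis) by log2 ratio of footprint CPM to poly(A) CPM in control roots, the mean of both replicates (x axis, bins of 0.25), over 12735 genes; red lines mark the 6 genes. PHO2 lies in the left tail at -2.33, with 62 genes lower, and PHF1 to the right of the middle at 0.56.

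In control roots the 5′ leader of PHO2 held nearly as many footprints as its coding sequence, or more. It is listed in 3 regions of 411, 730 and 11 nt from 5′ to 3′ (chr2:14282630-14283040, chr2:14281592-14282321 and chr2:14281483-14281493), 1152 nt in all. Leader footprints numbered 1083 and 848 in the control libraries, beside 760 and 853 coding footprints. In low phosphate they numbered 522 and 553, beside 1122 and 610. Leader footprints per coding footprint were thus 1.43 and 0.994 in control against 0.465 and 0.907 in low phosphate. Both control values were above both low phosphate values, but low phosphate replicate 2 lay close to control replicate 2. The share of all genes that split this way was not counted. In poly(A) RNA the same ratio was 0.210 and 0.202 in control against 0.168 and 0.185 in low phosphate.

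The authors' footprint RPKM values, which divide reads by the length of the region and the size of the library, were lower in low phosphate in each PHO2 leader region. The 411-nt region had footprint RPKM of 279 and 215 in control against 73.7 and 109.7 in low phosphate. Both low phosphate values were below both control values, as for 28.3% of all leader regions tested (8.19% had both above), and the change on the log2(RPKM + 0.5) scale was -1.44 ± 0.53, which was not called (limma adjusted p = 0.830). The 730-nt region had footprint RPKM of 120 and 105.8 in control and 41.3 and 57.2 in low phosphate. These groups did not overlap either, in the same direction, with a change of -1.20 ± 0.51 (limma adjusted p = 0.830). The 11-nt region next to the start codon, with 11 footprints in control replicate 1, had a change of -1.41 ± 0.63 (limma adjusted p = 0.830). The median over all 24557 leader regions tested was itself -0.35. Limma called 0% of these regions, with 1125 at an unadjusted p under 0.05, while edgeR on the recovered reads called 29 of all regions and no PHO2 region. By edgeR on recovered reads the 411-nt and 730-nt regions had log2 changes of -1.03 ± 0.26 (edgeR adjusted p = 0.239) and -0.80 ± 0.26 (edgeR adjusted p = 0.593).

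Relative to coding footprints, the PHO2 leader regions had log2 changes of -0.92 ± 0.58, -0.68 ± 0.54 and -0.88 ± 0.61 from 5′ to 3′ (limma adjusted p = 0.882 for each). The median over all 23763 regions was -0.33, and limma called 0% of them, with 953 at an unadjusted p under 0.05. In poly(A) RNA the 411-nt and 730-nt regions had changes of -0.90 ± 0.95 and -0.95 ± 0.91 on the log2(RPKM + 0.5) scale (limma adjusted p = 1.00 for both), among 15512 regions of which limma called 0%, with 709 at an unadjusted p under 0.05, and edgeR on recovered reads called 4. The totals behind the authors' poly(A) RPKM were 0.453 to 0.965 times the coding totals and did not follow them, against 0.662 to 0.741 times for footprints, so the poly(A) RPKM of untranslated regions carry that uneven scaling.

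**Figure D3:**
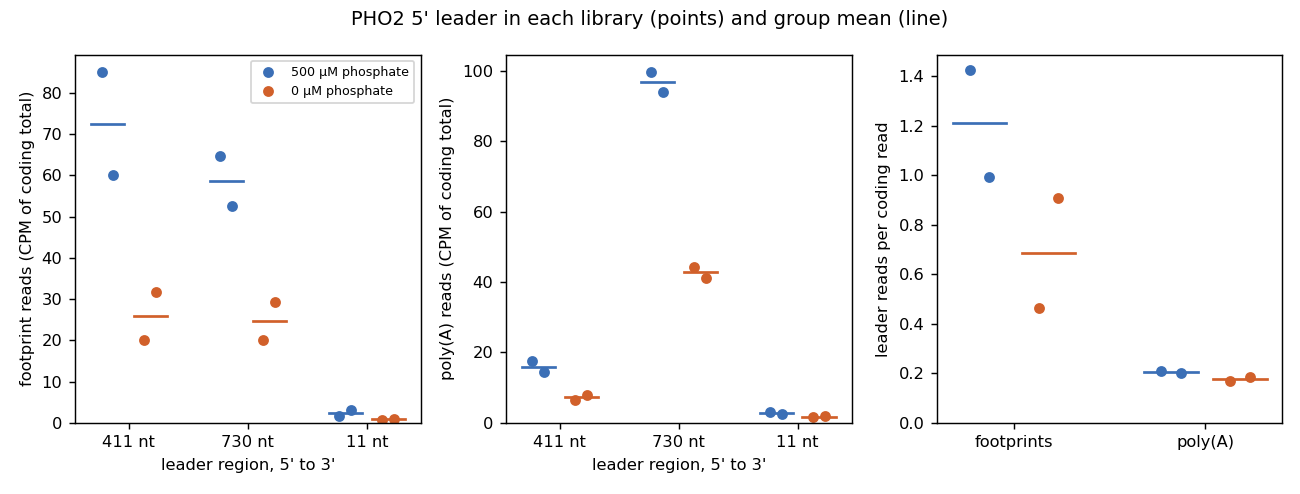
PHO2 leader reads in each library at 500 µM and 0 µM phosphate: footprints and poly(A) reads as CPM of the coding total for the 3 leader regions from 5′ to 3′ (left and middle), and leader reads per coding read (right); points are libraries and lines are means of 2. Footprints of the 411-nt region lie at 85.1 and 60.1 in control and at 20.1 and 31.7 in low phosphate, and the poly(A) reads of the leader lie mostly in the 730-nt region.

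Footprints were spread unevenly along the PHO2 leader. Scaled to coding totals, the 411-nt region had 4.88 and 4.16 footprints per poly(A) read in control against 3.05 and 4.03 in low phosphate. The 730-nt region had 0.649 and 0.560 in control against 0.450 and 0.713 in low phosphate. The median over 5517 leader regions with at least 10 reads of each assay in each control library was 2.82, so that the control ratio of the 411-nt region stood above 69.0% of regions and that of the 730-nt region above 3.53%. The 730-nt region holds the listed upstream reading frame of PHO2, 78 nt at transcript positions 596 to 673 (chr2:14282060-14282137, counted along the listed regions). Its deposited footprint scores were 5878 and 5926 in control and 4077 and 4029 in low phosphate, and its poly(A) scores were 17209 and 10619 against 5641 and 7396. The low phosphate scores were the lower in both assays, but the share of all frames that split this way was not counted. The log2(score + 10) changes were -0.54 ± 0.38 in footprints (limma adjusted p = 0.879) and -1.06 ± 0.46 in poly(A) RNA (limma adjusted p = 0.914). The scores did not follow library depth, and divided by coding library sizes they gave a footprint change of -1.09 ± 0.50 (limma adjusted p = 0.848). The listed frame of VPT1, 78 nt, had footprint scores of 78 and 0 in control and 0 and 117 in low phosphate, under the minimum for testing. Limma called 0% of 3529 upstream frames in footprints and 0% of 3059 in poly(A) RNA, with 150 and 141 at an unadjusted p under 0.05.

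NLA lies on the plus strand of chromosome 1 (635144 to 637262). Its poly(A) RNA was 38.8 and 34.7 CPM in control and 25.4 and 22.7 CPM in low phosphate. The groups did not overlap, as for 20.2% of all genes in the same direction, and the change of -0.62 ± 0.17 was not called (edgeR adjusted p = 0.208). NLA footprints were 28.2 and 37.4 CPM in control and 20.8 and 23.5 CPM in low phosphate. Both low phosphate libraries were again the lower, as for 18.4% of all genes, with a change of -0.57 ± 0.18 (edgeR adjusted p = 0.266). In dsRNA the groups overlapped, at 15.1 and 27.1 CPM in control and 15.0 and 20.2 CPM in low phosphate, and the change was -0.23 ± 0.29 (edgeR adjusted p = 0.668). The footprint RPKM of the 330-nt NLA leader was 22.3 and 15.2 in control and 7.85 and 15.9 in low phosphate. These groups overlapped, and the change was -0.69 ± 0.61 (limma adjusted p = 0.830).

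PHF1, on the minus strand of chromosome 3 (19353972 to 19357074), rose in all 3 assays. Its poly(A) RNA was 34.3 and 44.9 CPM in control and 73.0 and 71.6 CPM in low phosphate. Both low phosphate libraries were above both controls, as for 21.6% of all genes. The level was 1.83-fold higher on average (log2 change 0.87 ± 0.16, edgeR adjusted p = 0.0292). The call ended without poly(A) control replicate 1 (edgeR adjusted p = 0.321), low phosphate replicate 1 (0.175) or low phosphate replicate 2 (0.153), and in a fit of the poly(A) libraries alone (0.0695). PHF1 footprints were 62.4 and 69.3 CPM in control and 132.6 and 142.0 CPM in low phosphate. They rose 2.08-fold (log2 change 1.06 ± 0.16, edgeR adjusted p = 0.0114). That call ended without footprint control replicate 1 (edgeR adjusted p = 0.143), control replicate 2 (0.0512) or low phosphate replicate 2 (0.0548). Of all genes, 0.664% were called higher in both poly(A) RNA and footprints.

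PHF1 dsRNA was 29.4 and 23.8 CPM in control and 116.2 and 141.7 CPM in low phosphate. Each low phosphate library was several times above each control library, and dsRNA rose 4.76-fold (log2 change 2.25 ± 0.24, edgeR adjusted p = 2.09e-19), as 10.2% of all genes did. The dsRNA change exceeded the poly(A) change by a log2 value of 1.39 ± 0.27 (edgeR adjusted p = 0.00576), and PHF1 was the 1 gene of 6 so called, where 2.09% of 20482 genes were called (1.73% higher and 0.361% lower). Without dsRNA control replicate 1 (edgeR adjusted p = 0.0528) or control replicate 2 (0.104) that call ended. Extract, line label and kit differ between the dsRNA and poly(A) libraries and cannot be told apart from the assay. The footprint RPKM of the PHF1 leader, 164 nt, was 32.2 and 31.8 in control against 79.7 and 56.3 in low phosphate. Both low phosphate values were the higher, as for 8.19% of all leader regions, and the change of 1.06 ± 0.51 was not called (limma adjusted p = 0.830).

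VPT1, on the minus strand of chromosome 1 (23347561 to 23352697), rose in footprints and dsRNA. Its footprints were 81.4 and 79.1 CPM in control and 128.7 and 136.4 CPM in low phosphate. The groups did not overlap, as for 19.5% of all genes in the same direction, and there was a 1.65-fold rise (log2 change 0.72 ± 0.13, edgeR adjusted p = 0.0345). The call ended without any 1 of the 4 footprint libraries (edgeR adjusted p of 0.114 to 0.202) and in a fit of the footprint libraries alone (0.126). VPT1 poly(A) RNA was 78.6 and 67.5 CPM in control and 93.2 and 96.8 CPM in low phosphate. The groups did not overlap, as for 21.6% of all genes in the same direction, and the change of 0.38 ± 0.13 was not called (edgeR adjusted p = 0.356). VPT1 dsRNA was 74.5 and 77.0 CPM in control and 170.0 and 132.5 CPM in low phosphate. The log2 change was 1.00 ± 0.22 (edgeR adjusted p = 0.000129), a call that ended without dsRNA control replicate 1 (0.315) or control replicate 2 (0.238).

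The VPT1 leader is listed in 8 regions, of which the 42-nt region (chr1:23351027-23351068) overlaps none and the others overlap within 2 sets. The 42-nt region had footprint RPKM of 94.2 and 38.2 in control and 53.3 and 64.5 in low phosphate. These groups overlapped, with a change of -0.03 ± 0.66 (limma adjusted p = 0.991). The 323-nt region (chr1:23352324-23352646), also listed 1 nt shorter, had 6.42 and 3.11 in control against 2.55 and 1.97 in low phosphate, from 4 to 11 footprints per library. Its low phosphate values were the lower, as for 28.3% of all leader regions tested. The change was -0.86 ± 0.59 (limma adjusted p = 0.830), and -1.58 ± 0.56 relative to coding footprints (limma adjusted p = 0.882). The 75-nt region (chr1:23352324-23352398), which lies within it, had 7 and 2 footprints in control and 0 in both low phosphate libraries and was not called (limma adjusted p = 0.313, unadjusted p = 0.00344). The 80-nt and 183-nt regions had values of 1.62 ± 1.75 and 1.11 ± 1.39, and the 148-nt and 199-nt regions of 0.10 ± 0.50 and 0.09 ± 0.50, none of them called.

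Neither transcription factor gene was called in any assay. PHR1, on the minus strand of chromosome 4 (14132856 to 14135259), had poly(A) RNA of 33.6 and 38.4 CPM in control and 35.9 and 34.8 CPM in low phosphate. The groups overlapped, with a change of -0.03 ± 0.15 (edgeR adjusted p = 0.989). PHR1 footprints were 38.0 and 39.4 CPM in control and 45.3 and 39.4 CPM in low phosphate, a change of 0.13 ± 0.15 (edgeR adjusted p = 0.785). PHR1 dsRNA was 42.5 and 43.4 CPM in control and 32.3 and 39.6 CPM in low phosphate, a change of -0.27 ± 0.24 (edgeR adjusted p = 0.523). PHL1, on the minus strand of chromosome 5 (11022083 to 11024960), had poly(A) RNA of 30.0 and 27.4 CPM in control and 22.9 and 23.7 CPM in low phosphate. These groups did not overlap, as for 20.2% of all genes in the same direction, and the change of -0.30 ± 0.17 was not called (edgeR adjusted p = 0.729). PHL1 footprints were 29.4 and 31.5 CPM in control and 32.0 and 23.7 CPM in low phosphate (-0.12 ± 0.18, edgeR adjusted p = 0.838), and its dsRNA was 17.7 and 18.1 CPM against 15.4 and 20.2 CPM (-0.02 ± 0.29, edgeR adjusted p = 0.973).

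No tested leader region of either gene was called in footprints. In the 148-nt region of the PHR1 leader, footprint RPKM was 45.8 and 23.0 in control and 15.9 and 31.2 in low phosphate, with overlapping groups and a change of -0.53 ± 0.67 (limma adjusted p = 0.846). The 7-nt PHR1 region had a change of 0.06 ± 0.59 (limma adjusted p = 0.986). The tested regions of the PHL1 leader went in both directions. The 46-nt region had footprint RPKM of 32.8 and 26.2 in control against 12.8 and 10.4 in low phosphate, from 3 to 8 footprints per library (-1.31 ± 0.50, limma adjusted p = 0.830). The 11-nt region had a value of -0.72 ± 0.54 (limma adjusted p = 0.830), and its low phosphate values were also the lower, as for 28.3% of all leader regions tested. The 82-nt region had 0 footprints in both control libraries and 1 and 5 in low phosphate (limma adjusted p = 0.830, unadjusted p = 0.0276).

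**Figure D4:**
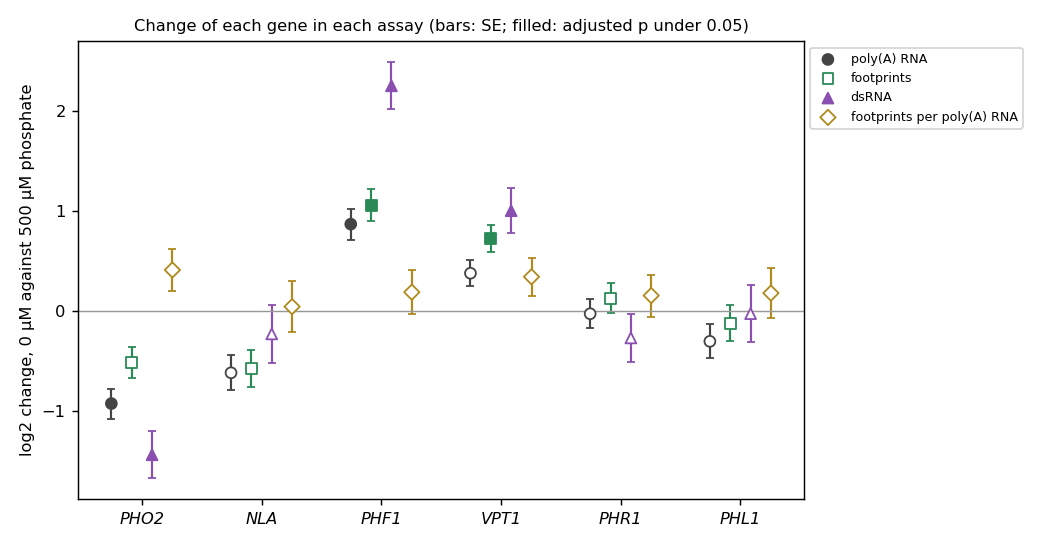
Log2 change of low phosphate (0 µM) against control (500 µM) roots with its SE (y axis) for each gene (x axis) in poly(A) RNA, footprints, dsRNA and footprints per poly(A) RNA; filled symbols have an adjusted p under 0.05. PHF1 is filled above 0 in poly(A) RNA, footprints and dsRNA, PHO2 is filled below 0 in poly(A) RNA at -0.92 and in dsRNA at -1.43, and no symbol for footprints per poly(A) RNA is filled.

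Translational efficiency, the footprint change minus the poly(A) change, was called for 0 of the 6 genes by edgeR, where 0% of 19866 genes were called. At an unadjusted p under 0.05 edgeR listed 397 genes, none of them a member, and DESeq2 and limma voom called 0. PHO2 had the highest value of the 6, 0.41 ± 0.21, followed by VPT1 with 0.34 ± 0.19, PHF1 with 0.19 ± 0.22, PHL1 with 0.18 ± 0.25, PHR1 with 0.16 ± 0.21 and NLA with 0.05 ± 0.25 (edgeR adjusted p = 1.00 for each). Neighbours in this order were closer than their SE. With footprint and poly(A) libraries of the same number as a paired block, PHO2 had 0.41 ± 0.16 (edgeR unadjusted p = 0.0159, adjusted p = 0.501). VPT1 then had 0.34 ± 0.17 (edgeR unadjusted p = 0.0463, adjusted p = 0.627), so both were under an unadjusted 0.05 but were not called.

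In the 3′ untranslated regions no member was called in footprints or poly(A) RNA, where limma called 0% and 0.886% of regions (0.567% higher and 0.319% lower in poly(A) RNA). The 3′ region of PHO2 had footprint RPKM of 32.4 and 15.9 in control against 8.30 and 8.42 in low phosphate. The low phosphate values were the lower, as for 24.1% of all 3′ regions tested (11.3% had both above), and the change was -1.39 ± 0.61 (limma adjusted p = 0.866). In the 17103 regions tested for footprints, 881 had an unadjusted p under 0.05 by limma, and edgeR on recovered reads called 31.

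Of 11 relatives of the members, 7 were tested in the coding table, and edgeR called 0 of them in poly(A) RNA and 0 in footprints, with 0 at an unadjusted p under 0.05 in either. The PHO2 relatives UBC23 and UBC25, other ubiquitin-conjugating enzyme genes, had poly(A) changes of -0.08 ± 0.15 and -0.17 ± 0.18, and UNE16, of the same family as PHR1, had 0.16 ± 0.21. In dsRNA edgeR called 0 of 8 relatives, with 3 at an unadjusted p under 0.05, as were 26.7% of all 17570 genes tested. Of 28 other genes of phosphate uptake and signalling, 9 of 25 tested rose and 0 fell in poly(A) RNA, and the same numbers held for footprints. Over all genes tested, 0.931% were called higher in poly(A) RNA and 0.911% in footprints. The list of 28 was chosen with earlier results of these data known. The list's median was 0.63 in poly(A) RNA and 0.59 in footprints. The called genes of smallest p in poly(A) RNA were 3 carriers that move phosphate into cells, PHT1;2 at 3.95 ± 0.25, PHT1;8 at 3.25 ± 0.21 and PHT1;4 at 2.43 ± 0.17, and the same 3 had the smallest p in footprints, at 4.35 ± 0.30, 2.59 ± 0.22 and 2.40 ± 0.17. Larger changes with a larger p were among the others called, with SPX3 at 4.85 ± 0.34 in poly(A) RNA and PHT1;5 at 5.78 ± 0.74 in footprints. In dsRNA 18 of 27 rose and 0 fell, beside 10.2% of all genes called higher and 5.57% lower, with a list median of 2.10. There SPX3 at 6.62 ± 0.31, SPX1 at 5.61 ± 0.29 and PHT1;8 at 6.52 ± 0.39 had the smallest p, and PHT1;7 had the largest change, 8.12 ± 1.03. The difference of dsRNA and poly(A) changes was called higher for 8 of 27 and lower for 1, with a median of 0.89. Of all genes, 1.73% were called higher and 0.361% lower.

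The genes whose pattern over the 8 coding libraries was most like each member were found by the root mean square difference of log2 CPM, each assay centred on its own mean. PHF1 was most like EXPA7, a root hair expansin gene, at a difference of 0.0597. Because EXPA7 was picked for its likeness in these same libraries, its similar changes were fixed by that choice. They were 0.98 ± 0.15 in poly(A) RNA (edgeR adjusted p = 0.0111) and 1.07 ± 0.15 in footprints (edgeR adjusted p = 0.00729). COBL9, another root hair gene, was added after its values were seen. Its changes were 0.74 ± 0.17 in poly(A) RNA (edgeR adjusted p = 0.108) and 1.09 ± 0.18 in footprints (edgeR adjusted p = 0.0191). The part of root hair cells in the PHF1 change was not tested. PHO2 was most like AT3G16560 (0.0866) and LAC12, a laccase gene (0.0963). VPT1 was most like AT1G09170 (0.0561) and RABA1e (0.0573), PHR1 like VPS20.1 (0.0337) and GSH2 (0.0372), and PHL1 like GAD2 (0.0301) and AT1G14650 (0.0432). The second gene for PHF1 was AT1G30870 (0.0769). NLA was most like ATCG00210 (0.0782), although its fitted poly(A) change was -3.22 (a prior count enters the measure), and TPS1 (0.0894).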

How the data were processed

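Per the submitters' processing notes, the authors used CASAVA 1.8, TopHat 1.3.1 and Bowtie2 2.2.9 with the TAIR10 genome. The sources used here do not give the counter or its strand setting, so overlapping and antisense genes may share reads. The deposited coding and dsRNA tables hold raw counts. The deposited untranslated region values are RPKM by the authors, from which whole reads were recovered (100% of values whole within 0.01). The deposited upstream frame values are a score of unstated origin, and the authors' small RNA table lists deposited read counts at each locus. Condition was taken from sample titles and column names, because the treatment text of some low phosphate samples repeats the control text. The members, gene lists and rules for named genes were chosen with earlier results of these data known. Named genes were the 6 members, their relatives, up to 3 called pathway genes of smallest p per assay and the 2 genes most like each member. EXPA7, COBL9, SKOR and SHR values, SPX3 and PHT1;5 in the coding assays and PHT1;7 in dsRNA were added after they were seen.

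Coding counts of 8 libraries were fitted together with edgeR 4.0.16 (R 4.3.3, TMM, default filter, quasi-likelihood), and dsRNA counts on their own 4 libraries. The difference of dsRNA and poly(A) changes was fitted on both. For edgeR, each SE was derived from the test, as the absolute log2 change divided by the square root of its F statistic. Adjusted p-values are Benjamini-Hochberg over all features, two-sided, with a threshold of 0.05. Regions whose mean RPKM reached 1 were tested with limma 3.58.1 on log2(RPKM + 0.5), and frames with a mean score of at least 100 on log2(score + 10), scales that understate low values. For leader to coding ratios the prior count was 0.5, and genes needed 10 coding counts on average. The edgeR and limma tests were also run on simulated data with known changes. Those libraries were independent with a set spread, so the runs do not show how the tests perform on the real libraries. In the shallowest library, 3 counts equal 1.10 CPM, and in the deepest 0.112 CPM, for counting error only. Replicate numbers did not pair conditions, but footprint and poly(A) libraries of the same number deviated together (r = 0.270 in control and 0.453 in low phosphate across 19866 genes, which are not independent replicates). Alternatives were DESeq2 1.42.0, limma voom, other scalings, filters and pseudocounts, blocks and leaving out each library. Gene names were taken from RefSeq's TAIR10.1 table, which matched 26719 of 27416 coding identifiers. Noncoding RNA counts were not used.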

Additional observations from a re-analysis of the deposited data

Results flagged for a closer look

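PHF1 was set apart because its dsRNA change exceeded its poly(A) change by 1.39 on the log2 scale. This came from a test of the difference itself (edgeR adjusted p = 0.00576, n = 2 per condition and assay). Both low phosphate dsRNA libraries were above both control libraries, as for 26.8% of all genes tested. The difference is not particular to PHF1. EdgeR called it higher for 8 and lower for 1 of 27 other genes of phosphate uptake and signalling, with a median of 0.89. Of all genes, 1.73% were called higher and 0.361% lower, and the list was chosen with earlier results known. No group had enough libraries for a test of outlying samples.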

How the results depend on the processing

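Calls for members kept their direction in each alternative run, though several lost significance. With 235 poly(A), 237 footprint and 428 dsRNA minus poly(A) calls as reported, no low-count filter gave 371, 425 and 873. DESeq2 gave 429 poly(A) and 481 footprint calls. Fits of 1 assay alone ended the calls of PHF1 poly(A) RNA (0.86) and VPT1 footprints (0.72). Replicate numbers did not pair the conditions (r = 0.04 in poly(A) RNA, -0.05 in footprints and -0.02 in dsRNA), and with the replicate block the counts were 422 in poly(A) RNA, 418 in footprints, 70 for 5′ poly(A) regions and 88 for 3′ poly(A) regions. Footprint and poly(A) libraries as a paired block gave 8 efficiency calls, none a member, and no block changed a member's call. EdgeR on recovered reads called 29 and 4 leader regions in footprints and poly(A) RNA and 31 and 68 3′ regions, where limma called 0, 0, 0 and 197. Pseudocount 1 gave 14 for 5′ poly(A) regions, 123 for 3′ poly(A) regions and 8 poly(A) upstream frames, and pseudocount 0.1 gave 414 for 3′ poly(A) regions. Rescaling RPKM to coding library sizes, chosen after seeing the data as was rescaling of scores, gave 0 for 3′ poly(A) regions.

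Every tested region of each member was followed. Directions of uncalled values reversed in the 42-nt VPT1 leader region in footprints (0.28 by edgeR on recovered reads), the 46-nt PHL1 leader region in poly(A) RNA (-0.77 with pseudocount 0.1), the 3′ poly(A) values of PHR1 (-0.079) and PHL1 (-0.28) by edgeR, that of PHL1 after rescaling (-0.17), and the PHF1 leader to coding ratio (-0.010 with pseudocount 1). The causes were not tested.

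Leaving out 1 library at a time gave 59 to 119 poly(A), 93 to 184 footprint, 819 to 5218 dsRNA, 126 to 663 dsRNA minus poly(A) and 87 to 270 3′ poly(A) region calls; fewer samples are then fitted, and a lone library is assumed to vary like the other groups. Log2 changes then ranged from -1.01 to -0.86 for PHO2, 0.68 to 1.06 for PHF1 and -0.13 to 0.058 for PHR1 in poly(A) RNA. In footprints they ranged from 0.99 to 1.14 for PHF1, 0.68 to 0.77 for VPT1 and -0.36 to 0.076 for PHL1. In dsRNA they ranged from -1.56 to -1.29 for PHO2, 0.81 to 1.18 for VPT1, -0.64 to 0.20 for NLA and -0.20 to 0.18 for PHL1. DsRNA minus poly(A) values ranged from 1.19 to 1.57 for PHF1 and -0.058 to 0.77 for NLA. Efficiency ranged from -0.14 to 0.27 for NLA, -0.053 to 0.38 for PHL1 and -0.0031 to 0.38 for PHF1. Leader poly(A) values ranged from -0.93 to 0.10 for the 11-nt region of PHO2, -1.77 to 0.52 for PHR1, -0.35 to 1.60 for NLA, -1.91 to 2.07 for PHL1, -2.22 to 0.10 for PHF1 and -0.042 to 1.76 for the 42-nt region of VPT1. Leader footprints ranged from -0.68 to 0.61, -0.74 to 3.97 and -0.68 to 2.90 for the 42-nt, 80-nt and 183-nt regions of VPT1, from -0.073 to 0.26 and -0.071 to 0.26 for its 148-nt and 199-nt regions, and from -0.43 to 0.55 for the 7-nt region of PHR1. In 3′ regions, footprints ranged from -0.011 to 0.69 for PHL1 and -0.11 to 0.84 for PHR1. There poly(A) values ranged from -0.76 to 0.45 for NLA, -0.10 to 1.03 for the 411-nt region of VPT1, -0.10 to 1.05 for its shorter versions, -0.33 to 0.80 for PHR1 and -0.42 to 0.52 and -0.58 to 1.74 for the 253-nt and 226-nt regions of PHL1. Leader to coding ratios ranged from -0.60 to 0.34 for NLA, -0.28 to 0.28 for PHF1, -1.47 to 3.27 and -1.417 to 2.202 for the 80-nt and 183-nt regions of VPT1 and -0.43 to 0.30 for the 7-nt region of PHR1. The 75-nt VPT1 and 82-nt PHL1 leader regions rest on 0 to 7 footprints per library.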
